A study of Mus musculus with 14 samples.

Results

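The response of the HCN4F left ventricle to pressure overload was described by comparing 4 HCN4F-TAC with 4 HCN4F-Sham libraries, 8 of the 14 libraries analysed. HCN4F mice carry a knock-in point mutation in exon 4 of Hcn4, the gene of a pacemaker channel of the sinus node. Both groups carry it, and it comes from 1 knock-in line. The mutation is a gain of function that raises intrinsic heart rate. Male mice of 10 to 12 weeks underwent transverse aortic constriction (TAC), calibrated with a 27-G needle, or Sham surgery, and the hearts were taken 5 weeks later. RNA was extracted from whole left ventricular tissue and polyA-selected for sequencing, with 1 library for each of n = 4 samples that the study calls biological replicates. WT-Sham (n = 4) and WT-TAC (n = 2, replicates 2 and 3) libraries entered the model for the estimate of the spread and are used below only for comparison with HCN4F. The samples were chosen by their labels alone, and no measured value was used.

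Constriction of the aorta makes the left ventricle eject against a raised pressure. Its cardiomyocytes enlarge, take up again genes of the fetal heart such as natriuretic peptides, beta-myosin and skeletal actin, and are known to turn from fatty acids towards glucose. Fibroblasts between them become matrix-producing cells, and potassium channels that end the action potential are often lowered in such hearts.

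The 8 libraries held 22309914 to 33368926 counts, and values are given as TMM-scaled CPM for each library in the order of its replicate number. CPM are the counts of a gene scaled to a common library size. Mitochondrial genes took 17.1% to 21.4% of the counts in HCN4F-Sham and 13.9% to 18.6% in HCN4F-TAC. On the first principal component (50.6% of the variance of the 1000 most variable genes), the Sham libraries lay between -20.77 and -14.58. HCN4F-TAC replicate 3 lay at 4.50, nearest to them, and HCN4F-TAC replicate 2 lay farthest at 29.82. Replicate 3 was also the TAC library nearest the Sham side in 176 of the 242 genes called higher and in 90 of the 178 called lower, so results were repeated without it and without each other library. The 10 markers of ventricular cardiomyocytes summed to 65447 to 71583 CPM in HCN4F-Sham and to 58845 to 65357 CPM in HCN4F-TAC, and none of them was at 0 in any group. In bulk tissue, fewer cells of a type and less RNA per cell cannot be told apart.

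Of 49315 genes in the table, 15292 had enough counts to be tested, and 420 (2.75% of those tested) were called, meaning an adjusted p under 0.05 and a log2 fold change beyond 1. Of these, 242 (1.58%) were higher and 178 (1.16%) lower after TAC. In the following, a gene is said to have risen or fallen where its adjusted p in edgeR's quasi-likelihood test was under 0.05, whatever its size, which applied to 1101 genes upwards (7.2%) and 980 downwards (6.41%). The rises reached further than the falls, with 68 genes above a log2 fold change of 2 and 16 below -2. The median over all tested genes was -0.01. In 203 of the genes called higher and 144 of those called lower, the 4 TAC libraries did not overlap with the 4 Sham libraries, while over all tested genes the TAC libraries lay wholly above in 7.95% and wholly below in 7.16%. Protein-coding genes made up 223 of the 242 higher and 133 of the 178 lower. A group of 146 higher and 79 lower genes was called in the full fit and in each of the 8 fits that left out 1 HCN4F library.

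**Figure D1:**
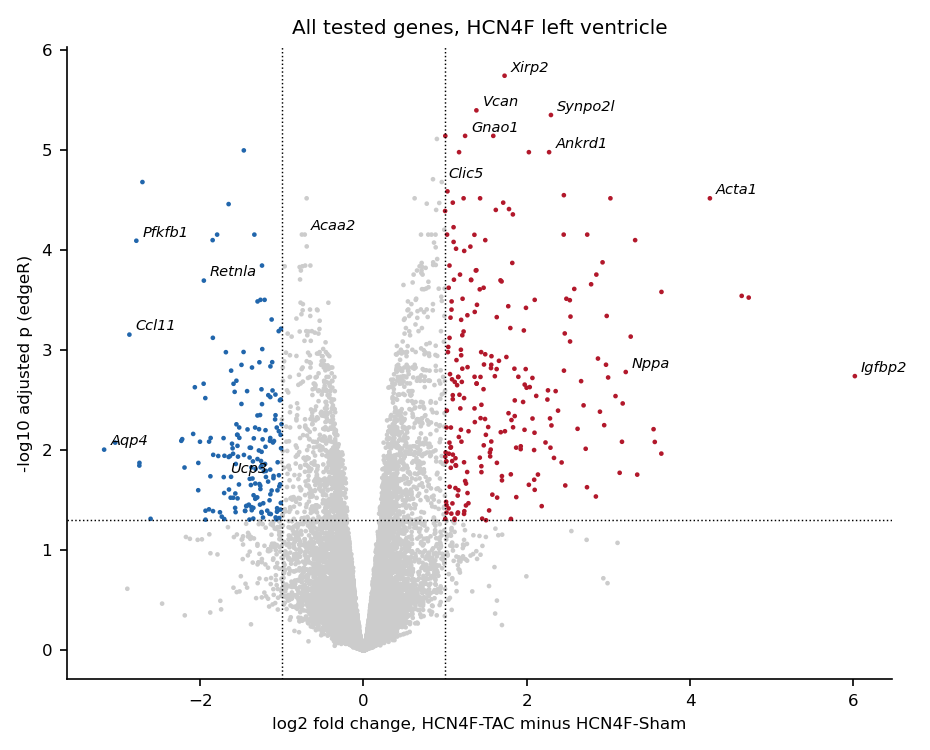
Log2 fold change (HCN4F-TAC minus HCN4F-Sham, x axis) against -log10 of the adjusted p from edgeR (y axis), 1 point for each of the 15292 tested genes, with the 242 genes called higher in red, the 178 called lower in blue and the thresholds as dotted lines. The rises extend to a fitted 6.02 for Igfbp2, whose Sham libraries hold at most 3 counts and whose lower bound is 4.89, and the falls to -3.18 (Aqp4), and the smallest adjusted p belongs to Xirp2 at a log2 fold change of 1.73.

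Of all gene lists, that of load-induced hypertrophy markers had the highest median log2 fold change (1.90). It was written with earlier results of these data known. Of its 11 tested genes, 9 were called higher (81.8%, against 1.58% of all genes). The same count was reached without any 1 of the 8 libraries. Of the 12 listed genes, 11 had a promoter in RefSeq, and 5 of these (Nppb, Acta1, Ankrd1, Mybpc2 and Myh7) held the M-CAT element, which TEAD factors bind, within 250 bases before an annotated start. Short stretches are printed for the first 4, to show where the element lies, and for Nppa, another strongly risen gene, for comparison. The letters searched were CATTCC and its reverse complement GGAATG. Over all 27025 genes with a promoter in RefSeq, 14.4% held it in the same window. The CArG box, which serum response factor binds, was found in Acta1 alone of the list and in 1.62% of all genes. Each line gives the 160 bases before the start of transcription (RefSeq, GRCm38.p6, 5′ to 3′ on the strand of the gene), with M-CAT and CArG letters in capitals.
Acta1: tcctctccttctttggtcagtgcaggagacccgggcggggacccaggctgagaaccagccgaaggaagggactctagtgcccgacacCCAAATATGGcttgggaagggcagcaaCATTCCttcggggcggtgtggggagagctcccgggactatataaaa
Nppb: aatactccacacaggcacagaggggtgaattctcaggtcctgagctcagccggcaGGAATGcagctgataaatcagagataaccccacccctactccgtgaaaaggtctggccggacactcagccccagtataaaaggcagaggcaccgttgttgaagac
Ankrd1: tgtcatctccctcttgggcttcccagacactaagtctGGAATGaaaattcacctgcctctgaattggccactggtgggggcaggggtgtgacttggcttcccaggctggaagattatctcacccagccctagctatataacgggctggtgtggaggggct
Mybpc2: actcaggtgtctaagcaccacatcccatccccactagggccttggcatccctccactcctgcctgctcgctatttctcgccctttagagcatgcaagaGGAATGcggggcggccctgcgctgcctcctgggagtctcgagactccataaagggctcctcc
Nppa: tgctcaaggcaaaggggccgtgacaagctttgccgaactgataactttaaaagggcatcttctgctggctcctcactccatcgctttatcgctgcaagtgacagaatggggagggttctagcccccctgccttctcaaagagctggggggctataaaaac
The stretches lie at chr8:123894776-123894935 (minus strand) for Acta1, chr4:147985740-147985899 (plus) for Nppb, chr19:36119845-36120004 (minus) for Ankrd1, chr7:44524670-44524829 (minus) for Mybpc2 and chr4:148000562-148000721 (plus) for Nppa. In Acta1 the CArG letters stood 73 to 64 bases and the M-CAT letters 46 to 41 bases before the start, M-CAT stood 105 to 100 bases before it in Nppb, 123 to 118 in Ankrd1 and 62 to 57 in Mybpc2. Ankrd1 held a second M-CAT match farther from the start, and Nppa held neither motif within 250 bases. Such a match describes the letters and not a bound site. The search was planned for the 15 largest rises and the 15 largest falls given further on, and the load-induced list was not part of that plan. Among these rises M-CAT was present in 4 of 11 genes with a promoter in RefSeq, and among the falls in 2 of 9.

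Acta1, the skeletal muscle actin that fetal cardiomyocytes also make (chr8:123891769-123894751, minus strand), measured 183, 252, 191 and 172 CPM in the Sham libraries and 3771, 5589.9, 2121 and 3637 CPM in the TAC libraries. The groups were far apart, and replicate 3 was the lowest of the TAC libraries. The log2 fold change was 4.24 (SE 0.34, adjusted p = 3.01e-05). Nppa, the gene of atrial natriuretic peptide (chr4:148000722-148002079, plus strand), measured 134, 130.5, 69.0 and 96.0 CPM against 554, 1832, 410.2 and 1179 CPM. Its TAC libraries spread widely, from replicate 3 to replicate 2, and all lay above Sham (log2 fold change 3.21, SE 0.48, adjusted p = 0.00164). Nppb, which encodes brain natriuretic peptide, measured 357, 210.1, 97.6 and 141 CPM in Sham and 1035, 1214, 680.4 and 929.5 CPM after TAC. Sham replicate 1 was the highest of its group without reaching the TAC libraries (log2 fold change 2.26, adjusted p = 0.00251). The peptide's clearance receptor Npr3 (log2 fold change 0.29, adjusted p = 0.157) and the protease Corin that processes it (-0.21, adjusted p = 0.473), both chosen after their values were seen, did not pass the test.

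Myh7, the slow beta-myosin heavy chain (chr14:54970684-54994626, minus strand), measured 371, 303, 185 and 339 CPM in Sham and 853, 2965, 962 and 1793 CPM after TAC (log2 fold change 2.46, SE 0.37, adjusted p = 0.00159). Replicates 2 and 4 held the high values and replicates 1 and 3 were close to each other. The fast alpha-myosin Myh6, the main adult isoform in mice, went from 29102 ± 1318 to 24091 ± 2905 CPM (mean ± SD, n = 4). It fell by 0.27 on the log2 scale (adjusted p = 0.0358) with no overlap between groups. Reads of Myh7 and of the antisense RNA Mhrt that overlaps it cannot be told apart here, since the use of strand in counting was not stated. Ankrd1, a stretch-responsive protein of the Z-disc and nucleus, measured 671, 624, 812 and 786 CPM against 3586, 5059, 2277 and 3070.2 CPM, a log2 fold change of 2.27 (SE 0.19, adjusted p = 1.04e-05). Rcan1, an inhibitor and target of calcineurin (log2 fold change 1.85, adjusted p = 0.00316), Ctgf, a matricellular growth factor (1.90, adjusted p = 0.00184), and Mybpc2, the fast skeletal myosin-binding protein C (1.47, adjusted p = 2.36e-04), completed the list together with Xirp2. Rcan1 and Mybpc2 are named here because they belong to the list, after their values were seen.

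**Figure D2:**
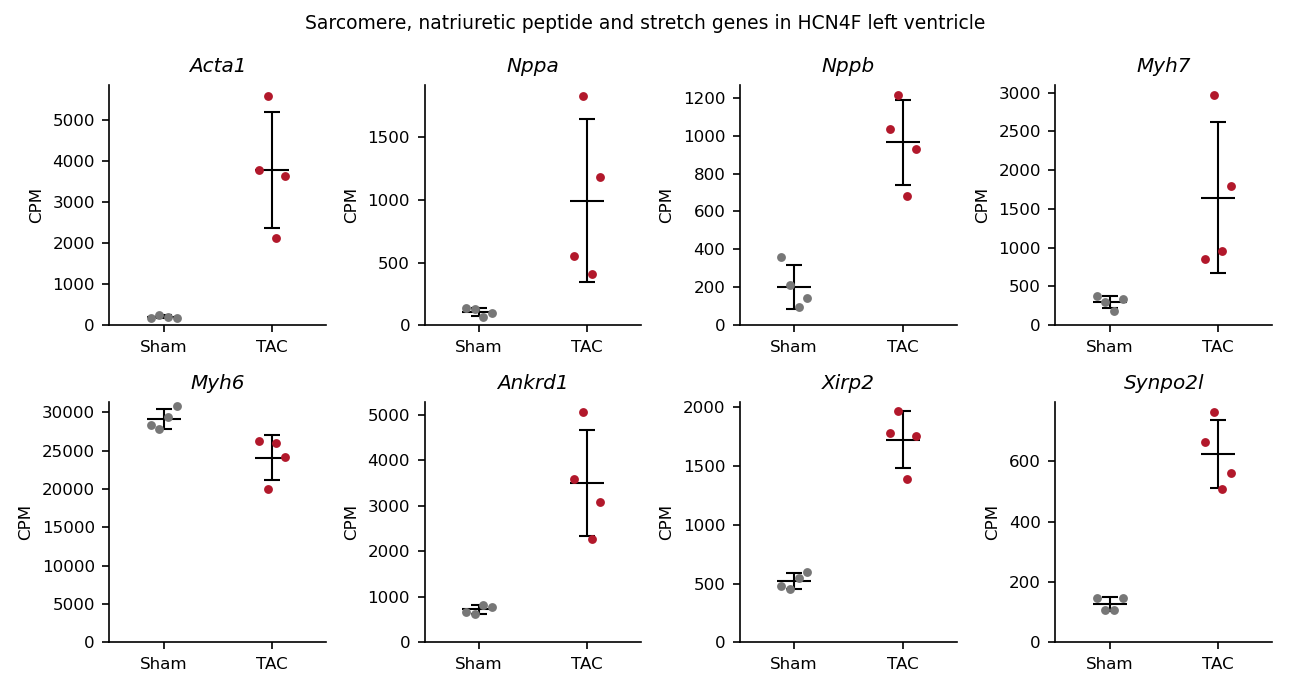
CPM (y axis, from 0) of 8 sarcomere, natriuretic peptide and stretch genes in the 4 Sham (grey) and 4 TAC (red) libraries of HCN4F, with lines for the mean and SD. The TAC libraries lie above all Sham libraries in 7 genes and below them in Myh6, and replicate 2 is the highest TAC library in all 7.

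The 15 largest rises with no overlap between groups and a mean of at least 1 CPM mixed cardiomyocyte, matrix and signalling genes. Igfbp2, a carrier of insulin-like growth factors, had at most 3 counts in any Sham library and 8.09, 0.922, 1.06 and 3.21 CPM after TAC, at least 29.6-fold higher when Sham is set at 3 counts per library, and at least 15.4-fold without TAC replicate 1 (adjusted p = 0.00181). Cilp (3.27), Comp (3.18), Ltbp2 (2.97), Thbs4 (2.87) and Fmod (2.85) encode secreted matrix proteins and are described with the matrix. The transcription factor Tbx15 rose by a log2 fold change of 3.02, the growth factor Fgf6 by 3.00, the lipoprotein receptor family member Lrp8 by 2.93, Lman1l by 2.85 and Nlrc3, a member of the NOD-like receptor family, by 2.79 (adjusted p from 3.01e-05 for Tbx15 to 0.00187 for Fgf6). Gm13054, annotated on the strand opposite Nppa, rose by 2.98, and its reads cannot be told apart from those of Nppa without strand.

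The 15 largest falls, chosen by the same rule of no overlap and mean CPM, held several metabolic and transport genes. Aqp4, a water channel, measured 0.602, 0.913, 4.30 and 1.63 CPM in Sham and 0.207, 0.132, 0.424 and 0.0407 CPM after TAC (log2 fold change -3.18, adjusted p = 0.00983). Cacng6, a subunit of skeletal muscle calcium channels, measured 1.43, 1.55, 6.65 and 2.05 against 0.498, 0.329, 0.495 and 0.0814 CPM (-3.04, adjusted p = 0.00837). In both genes Sham replicate 3 was the highest library, and the groups did not overlap, as the rule required. Among the others were the chemokine Ccl11 (-2.87), the glycolytic regulator Pfkfb1 (-2.78), the methyltransferase Inmt (-2.22), the acyl-CoA thioesterase Acot1 (-2.02), Retnla, a marker of alternatively activated macrophages (-1.95), the opioid precursor Penk (-1.94), Klhl33 (-1.85), the potassium channel subunit Kcnv2 (-1.84), the matrix protein Efemp1 (-1.79), the uncoupling protein Ucp3 (-1.71) and the noncoding Uckl1os (-2.07) and Gm10635 (-1.96). Uckl1os lies opposite the gene Uckl1 and is uncertain for the same reason as Gm13054.

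**Figure D3:**
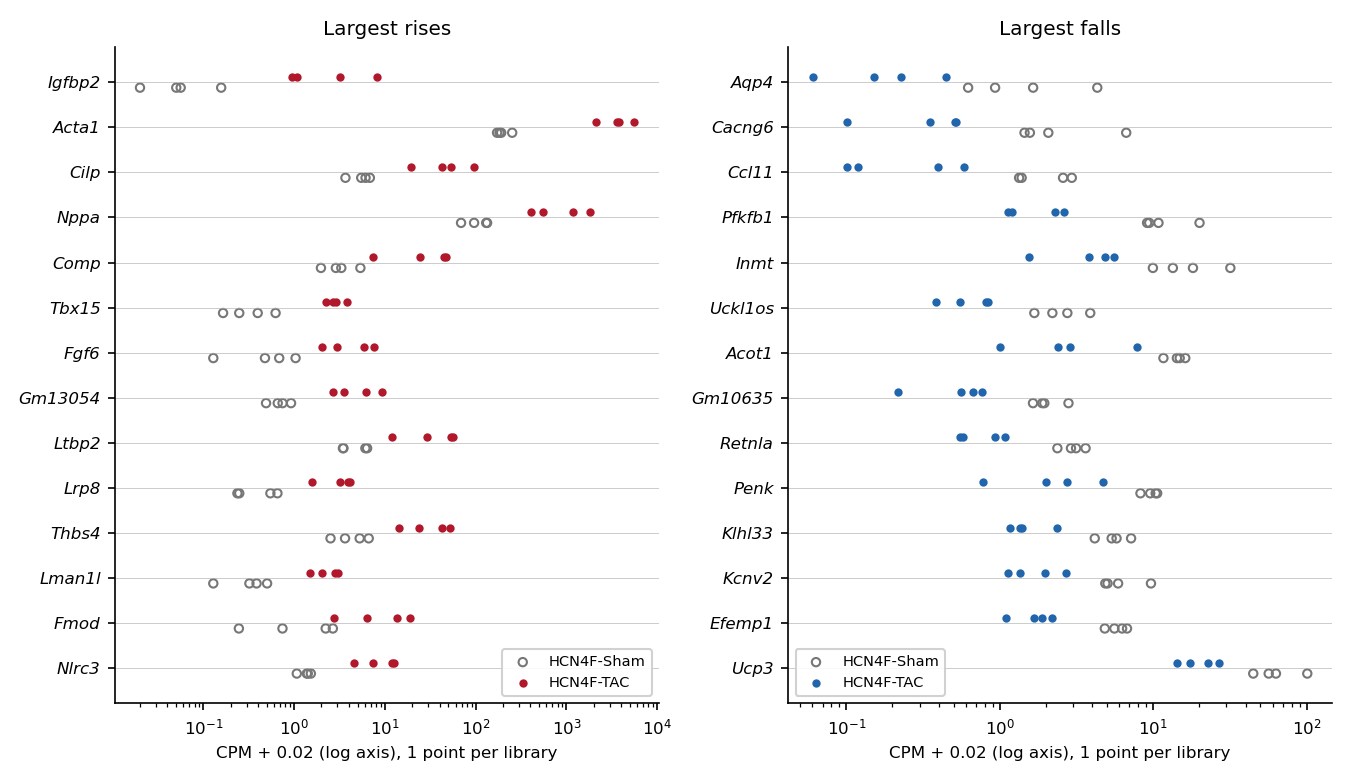
CPM plus 0.02 on a log axis for the genes named from the 15 largest rises (left, TAC red) and the 15 largest falls (right, TAC blue) without overlap, with the 4 Sham libraries as open circles. By this choice, the TAC points of every gene lie at higher CPM than all Sham points on the left side and at lower CPM on the right side.

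In the Z-disc, which anchors actin and senses stretch, 10 of 22 tested genes (45.5%, against 1.58% of all genes) were called higher and 17 (77.3%, against 7.2%) rose (median log2 fold change 0.59). In the costamere and dystrophin complex, which ties the Z-disc to the membrane, 1 of 11 (9.09%) rose, near the share of all genes (median 0.09). The count of called genes in both together stayed between 8 and 10 when any 1 library was left out. Synpo2l, an actin-bundling Z-disc protein, measured 148, 106, 108 and 146 CPM in Sham and 664, 764, 507 and 562 CPM after TAC (log2 fold change 2.30, SE 0.17, adjusted p = 4.42e-06). Xirp2, an actin-binding protein of the intercalated disc and Z-disc, measured 478, 452, 547 and 600.4 against 1778, 1969.6, 1389.7 and 1752 CPM, with the smallest adjusted p of all genes (1.79e-06, log2 fold change 1.73). The TAC values of both genes lay close together, replicate 3 included. Its relative Xirp1 (1.49), the ankyrin repeat protein Ankrd23 (1.80), the LIM protein Fhl1 (1.31) and myotilin, Myot (1.29), were also called. Ankrd2, named because it belongs to the same family, rose from 0.361 ± 0.162 to 1.38 ± 0.644 CPM (log2 fold change 1.96, adjusted p = 0.00328), a low level with overlap between the groups. Filamin C (Flnc, 1.03) and Nrap (1.00) were called just above the threshold, and the call was lost without Sham replicate 2 or TAC replicate 1 for Flnc (0.95 without Sham replicate 2). For Nrap it was lost without Sham replicate 1 or 2 or TAC replicate 1 or 2 (0.93 without Sham replicate 2) and narrowly in the fit of HCN4F libraries alone (0.994), at a mean CPM of at least 1 and without mitochondrial genes (0.999 in both). Desmin (Des, 0.44), Csrp3 (0.64) and alpha-actinin (Actn2, 0.30) rose by less. Of these, Xirp1, Fhl1, Myot, Flnc, Nrap, Csrp3 and Ankrd2 were chosen after their values were seen.

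In the lists of the thick and thin filament, Acta1 and Myh7 were the called genes. The called Mybpc2, given above, belongs to neither list. Among myosin chains, Myh7 rose and 2 of 8 fell, Myh6 and the ventricular light chain Myl2 (-0.30, adjusted p = 0.0131). They were the only fallen genes of the thick filament, where the count of 2 was 1 without Sham replicate 4 or TAC replicate 2. Among myosin-associated and M-band genes 4 of 6 rose, including cardiac myosin-binding protein C, Mybpc3, from 4087 ± 570.0 to 5308 ± 79.1 CPM (0.38, adjusted p = 0.00628). In the thin filament, cardiac actin Actc1 rose (0.29, adjusted p = 0.0359), while cardiac troponin I, Tnni3, fell from 3118 ± 433 to 2074 ± 295 CPM (-0.59, adjusted p = 0.00221). Troponin T (Tnnt2, -0.23) and tropomyosin (Tpm1, -0.26) also fell, by less. Mybpc3 and Tnni3 were chosen after their values were seen.

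Of 30 calcium handling genes, 2 (6.67%) rose (5 without Sham replicate 1) and 5 (16.7%) fell, against 7.2% and 6.41% of all genes, and the median was -0.06. The 7 tested genes of calcium uptake and its regulators all lay below 0 (median -0.28), and 1 of them fell. Atp2a2, the calcium pump of the sarcoplasmic reticulum, measured 12994, 8556, 14942 and 12819 CPM in Sham and 10446, 10711, 13028 and 9651 CPM after TAC. The groups overlapped, and the log2 fold change was -0.17 (SE 0.14, adjusted p = 0.474). Phospholamban, which restrains the pump (Pln, -0.21, adjusted p = 0.148), and the release channel Ryr2 (-0.26, adjusted p = 0.146) did not pass the test either. The calcium-binding protein Hrc fell from 1176 ± 47.1 to 842 ± 129 CPM (-0.48, adjusted p = 0.00201), and calsequestrin, Casq2, rose (0.47, adjusted p = 0.0154). Mrln, the gene of the pump-inhibiting peptide myoregulin, was the 1 called member (-1.61, adjusted p = 0.00858), from a mean of 0.544 ± 0.244 CPM in Sham. Hrc, Casq2 and Mrln were chosen after their values were seen.

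The extracellular matrix held most of the listed rises. Of 234 tested matrix genes, 61 were called higher and 4 lower (1.58% and 1.16% of all genes), 117 rose and 13 fell (7.2% and 6.41% of all genes; 8 and 7 fell without TAC replicates 1 and 2), and the median log2 fold change was 0.46, with 179 above 0 and 55 below. The count that rose stayed between 88 (without TAC replicate 2) and 126 (without TAC replicate 3). The 10 fibroblast markers, which share genes with these lists, summed to 1783 to 2341 CPM in HCN4F-Sham and 2059 to 2815 CPM in HCN4F-TAC, and 5 of the 10 rose. The part of fibroblast number in the matrix rises was not tested.

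Collagens, the fibres and networks of the matrix, had 10 of 34 (29.4%) called higher, against 1.58% of all genes, with a median of 0.75. In the other direction 1 (2.94%, against 1.16%) was called lower (3 without Sham replicate 3, 2 without Sham replicate 1 or 4). All 8 basement membrane collagens lay above 0, and 7 of them rose. Col1a1, the main chain of type I collagen, measured 154, 206, 131 and 130.0 CPM in Sham and 351, 417, 216 and 383 CPM after TAC (log2 fold change 1.14, adjusted p = 0.00125). Replicate 3 was the lowest TAC library and lay just above the highest Sham library. Col3a1 of type III collagen moved almost as far, from 194 ± 41.4 to 388 ± 96.1 CPM, at a log2 fold change that rounds to 1.00 but lay just below the threshold of a call (adjusted p = 0.00252). It was called by DESeq2 on all groups and with DESeq2 size factors (1.01 in both), and without Sham replicate 1 (1.03), Sham replicate 2 or TAC replicate 3. Larger rises came from other collagens, Col8a2 (2.70) and Col8a1 (1.83) of the short-chain type VIII, the fibril-associated Col12a1 (1.98) and Col4a3 of basement membranes (1.36). Col4a1, another basement membrane chain, rose by 0.74. Col6a6, a minor chain of type VI collagen, went the other way, from 12.8 ± 1.83 to 5.23 ± 2.56 CPM (-1.30, adjusted p = 0.0122).

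Among enzymes that process and crosslink collagen, 13 of 21 (61.9%, against 7.2% of all genes) rose (median 0.49). Lox, a lysyl oxidase that crosslinks collagen and elastin, measured 5.01, 6.12, 5.46 and 6.13 CPM against 15.5, 14.9, 7.56 and 14.2 CPM (1.20, adjusted p = 4.95e-04), with TAC replicate 3 far below the other 3 TAC libraries. Loxl2 was called at 1.11 and dropped just under the threshold without TAC replicate 1 (0.997). Among matricellular proteins, which signal within the matrix, 12 of 30 (40.0%, against 1.58% of all genes) were called higher (median 0.69). Postn, periostin of activated fibroblasts, measured 18.4, 24.0, 24.4 and 24.1 CPM in Sham and 92.8, 155, 37.5 and 96.2 CPM after TAC (2.07, adjusted p = 0.00189). TAC replicate 2 was highest and replicate 3 lowest, and no TAC library overlapped Sham. Cilp rose from 5.50 ± 1.35 to 53.1 ± 32.5 CPM, Comp from 3.36 ± 1.43 to 30.8 ± 18.8 CPM and Thbs4, a thrombospondin of stretched tissue, from 4.49 ± 1.81 to 33.0 ± 17.3 CPM (adjusted p = 7.28e-04, 0.00339 and 0.00121). Thbs1 (2.53), tenascin C (Tnc, 1.63) and osteopontin (Spp1, 2.09) were called, and fibronectin (Fn1, 0.82, adjusted p = 0.0114) rose by less. Spp1 was not called without Sham replicate 3 or TAC replicate 2 or 4 (1.69 without TAC replicate 2). Tnc and Spp1 were chosen after their values were seen.

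Elastic fibres and laminins had 5 of 26 called higher (19.2%, against 1.58% of all genes). Among them were Mfap4 (1.85), Mfap5 (1.56) and Ltbp2, a binding partner of fibrillin that went from 4.83 ± 1.597 to 37.8 ± 21.0 CPM. Efemp1, a fibulin, was called lower, from 5.84 ± 0.834 to 1.69 ± 0.452 CPM (-1.79, adjusted p = 6.95e-05). Proteoglycans had 6 of 26 called higher (23.1%, against 1.58% of all genes). Vcan, the large proteoglycan versican, measured 10.5, 11.9, 10.99 and 10.5 CPM in Sham and 31.3, 30.1, 22.2 and 31.0 CPM after TAC, with TAC replicate 3 the lowest of its group and no overlap (log2 fold change 1.38, SE 0.11, adjusted p = 3.98e-06). Biglycan (Bgn, 1.27) and aggrecan (Acan, 1.55) were also called, as was the hyaluronan receptor Cd44 (1.09), chosen after its values were seen and no longer called without TAC replicate 1 (0.89). Fibromodulin, Fmod, measured 0.226, 2.65, 0.723 and 2.20 CPM against 6.30, 18.9, 2.76 and 13.5 CPM (2.85, adjusted p = 0.0289). Its call was lost without Sham replicate 1 or 3 or TAC replicate 2 or 4, with a log2 fold change of 2.37 without TAC replicate 2, and in the fit of HCN4F libraries alone (adjusted p = 0.0535).

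Proteases and their inhibitors had 6 of 34 called higher (17.6%, against 1.58% of all genes). The count dropped to 3 without TAC replicate 1 and to 2 without TAC replicate 2. Adamts8, a secreted protease, was called (1.48), and stromelysin (Mmp3, 1.12) lost its call without TAC replicate 2 (0.91). Timp1, an inhibitor of matrix metalloproteinases, measured 4.82, 3.24, 2.24 and 1.12 CPM against 9.79, 11.6, 3.53 and 10.1 CPM, with TAC replicate 3 among the Sham values (1.64, adjusted p = 0.0297). Its call was lost without Sham replicate 2, 3 or 4 or without TAC replicate 1, 2 or 4, with the lowest log2 fold change of 1.35 without Sham replicate 4, and in the fit of HCN4F libraries alone (adjusted p = 0.0772).

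Signals that activate fibroblasts had 19 of 63 (30.2%) called higher and 2 (3.17%) lower, against 1.58% and 1.16% of all genes (median 0.37, and 0.23 without Sham replicate 1). The count of 2 was 1 without Sham replicate 2 or 4 or TAC replicate 1 and 0 without TAC replicate 2 or 4. The TGF-beta ligand Tgfb2 rose from 10.4 ± 2.11 to 24.3 ± 4.84 CPM (1.21, adjusted p = 3.04e-04), Inhba, an activin subunit, by 1.28 and Meox1, a transcription factor of activated fibroblasts, by 1.43. Endothelin 3, Edn3, measured 6.93, 3.38, 2.13 and 2.87 CPM against 23.6, 19.6, 15.9 and 26.4 CPM (2.49, adjusted p = 3.04e-04), and the stress cytokine Gdf15 rose from 3.78 ± 3.06 to 19.0 ± 8.32 CPM (2.33, adjusted p = 0.0119). Of the Wnt antagonists, Dkk3 (2.09) and Sfrp2 (1.96) were called higher and Sfrp5 lower (-1.87, adjusted p = 0.0182), the last not without TAC replicate 2 or 4 (-1.63 without replicate 4). Il11, an interleukin that acts on fibroblasts, had at most 6 counts in a Sham library, at 0.0376, 0, 0.145 and 0.181 CPM in Sham and 0.746, 0.494, 0.247 and 0.285 CPM after TAC (2.10, adjusted p = 0.0248). Its call was lost without Sham replicate 1 (1.85) or 2 (1.78). It was called in 4 of the 8 fits that left out 1 HCN4F library, and the other fits without a call did not test it. Inhba, Meox1, Sfrp2 and Il11 were chosen after their values were seen.

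**Figure D4:**
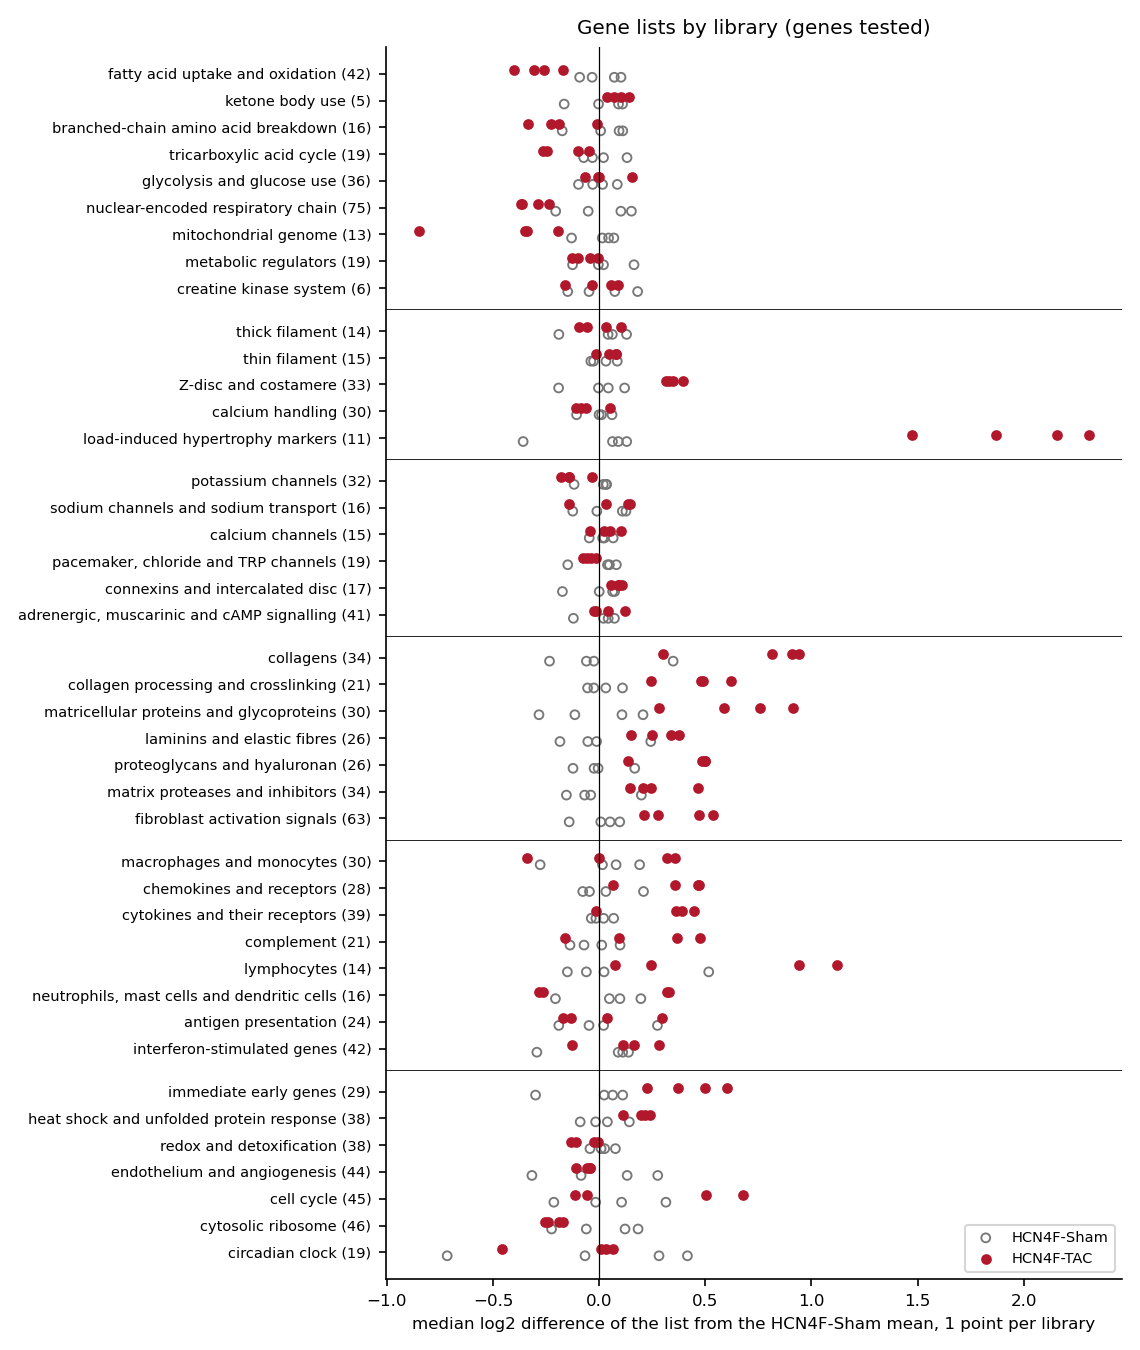
Median log2 difference of each gene list from its HCN4F-Sham mean (x axis), 1 point for each of the 4 Sham (open) and 4 TAC (red) libraries, with the number of genes tested in brackets. The load-induced list lies between 1.47 and 2.31 in TAC, the collagens between 0.30 and 0.94, and the respiratory chain between -0.37 and -0.24 against -0.20 to 0.15 in Sham.

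Metabolic genes fell in large number and by small steps. Of 231 tested, 1 (0.433%) was called higher and 3 (1.3%) lower, against 1.58% and 1.16% of all genes. By the adjusted p, 109 (47.2%) fell and 7 (3.03%) rose, against 6.41% and 7.2%, and 4 rose without TAC replicate 2. Of the 231, 192 lay below 0 and 39 above, and the median was -0.25 where that of all tested genes was -0.01. The count that fell was 69 without TAC replicate 2 and 65 without TAC replicate 4, lay between 87 and 120 without any other library, and was 60 in a fit on the HCN4F libraries alone. The ventricular cardiomyocyte markers, whose summed level was lower in TAC as given above, went both ways, with 4 of 10 fallen (Myl2, Myh6, Tnnt2 and Tnni3; 2 without Sham replicate 4 or TAC replicate 4) and 3 risen (Actc1, Mybpc3 and the M-band gene Myom2, 0.47, chosen after its values were seen), and the part of cardiomyocyte content in these falls was not tested.

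Genes for fatty acid uptake and oxidation, the main fuel route of the adult heart, had 40 of 42 below 0 and 21 fallen (13 without TAC replicate 2 and 13 without replicate 4). Acot1, a cytosolic thioesterase that frees fatty acids from CoA, measured 14.9, 11.6, 16.2 and 14.3 CPM in Sham and 2.86, 0.988, 7.77 and 2.36 CPM after TAC. Replicate 3 kept the highest value of the TAC libraries (-2.02, adjusted p = 0.0134). Acot1 was chosen among falls without overlap, so replicate 3 lay below every Sham library by that rule. Its mitochondrial relative Acot2 fell by 0.62 on the log2 scale. Ucp3, a mitochondrial carrier linked to fatty acid use, measured 44.9, 63.1, 101 and 56.6 CPM against 22.8, 17.3, 26.7 and 14.2 CPM (-1.71, adjusted p = 0.0185), and its call was lost without TAC replicate 2 or 4 (adjusted p = 0.0595 and 0.0539). In the beta-oxidation spiral itself 9 of 15 genes fell. Acaa2, the thiolase of its last step, went from 721 ± 39.7 to 438 ± 50.1 CPM (-0.72, adjusted p = 6.94e-05) and Etfb, which passes its electrons on, from 166 ± 23.9 to 96.8 ± 9.71 CPM (-0.78, adjusted p = 1.95e-04). Hadha, the trifunctional protein, fell by 0.36 and the lipoprotein lipase Lpl by 0.26 on the log2 scale. The transporter Slc27a1 fell by 0.70 on the log2 scale, whereas the fatty acid receptor Cd36 (-0.20, adjusted p = 0.153), the carnitine transferase Cpt1b (0.18, adjusted p = 0.357) and Acadm (-0.23, adjusted p = 0.133) did not pass. Acot2, Acaa2, Etfb and Slc27a1 were chosen after their values were seen.

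The respiratory chain was lower throughout. All 75 nuclear-encoded subunits had a negative log2 fold change, and 60 (80.0%, against 6.41% of all genes) fell. The values ran only from -0.70 to -0.06 with a median of -0.32. In 47 of the 75 the TAC libraries lay wholly below Sham, against 7.16% of all tested genes. Complex I had 30 of 37 fallen, complexes III and IV 16 of 23 and the ATP synthase 14 of 15. The count of 60 stayed between 41 and 65 without any library except TAC replicate 4, without which it was 37, and was 30 in a fit on the HCN4F libraries alone. Cox7a1, the heart and muscle subunit of cytochrome oxidase, measured 658, 699, 669.9 and 602 CPM in Sham and 388, 411, 446 and 377 CPM after TAC (-0.70, adjusted p = 3.01e-05), the largest fall of the list. The subunits Cox4i1 (-0.38) and Atp5b (-0.26) fell by less. The 13 protein genes of the mitochondrial genome were also all below 0 (median -0.41), and 10 fell, a count that dropped to 4 without Sham replicate 4 or TAC replicate 2, to 5 without TAC replicate 4, to 6 without Sham replicate 3 or TAC replicate 1 and to 7 without Sham replicate 2, and was 5 on the HCN4F libraries alone. Of them mt-Co1, a catalytic subunit of cytochrome oxidase, measured 71951, 83626, 87140.5 and 90249 CPM in Sham and 67512, 52585, 77168 and 67569 CPM after TAC (-0.33, adjusted p = 0.0495), with overlap between the groups, and mt-Nd1 of complex I measured 23446, 26367, 22724 and 25136 against 19263, 14637, 20216 and 19142 CPM without overlap (-0.41, adjusted p = 0.0120). TAC replicate 2 was the lowest library in both. Cox7a1 was chosen after its values were seen.

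Fuel routes beside fatty acids differed in direction. In glycolysis and glucose use, 5 of 36 (13.9%) rose and 5 (13.9%) fell, against 7.2% and 6.41% of all genes. The median was 0.03 (3 rose without TAC replicate 2, and 8 fell without TAC replicate 3). Pfkfb1, the liver and muscle isoform of the enzyme that sets a sugar phosphate activator of glycolysis, measured 9.11, 9.40, 20.03 and 10.8 CPM in Sham and 2.28, 1.12, 2.61 and 1.18 CPM after TAC (-2.78, SE 0.30, adjusted p = 8.00e-05). Pfkp, the platelet isoform of phosphofructokinase, went up from 49.1 ± 5.11 to 108 ± 25.4 CPM (1.13, adjusted p = 9.62e-05) and lay at 0.95 without TAC replicate 2, its highest library. The glucose transporter Slc2a1 (0.50, adjusted p = 0.0482; 0.27 without TAC replicate 2, adjusted p = 0.133) and Pgam1 (0.70, adjusted p = 0.00573) rose, while the muscle enolase Eno3 fell by 0.40 and the lactate dehydrogenase Ldhb by 0.38 on the log2 scale. Hexokinase (Hk2, 0.15, adjusted p = 0.403) and the pyruvate dehydrogenase kinase Pdk4 (-0.37, adjusted p = 0.563) did not pass. Bdh1, which oxidises the ketone body beta-hydroxybutyrate, measured 211, 180.5, 214 and 189.8 CPM against 341, 417, 339 and 301 CPM (0.81, adjusted p = 0.00201), the largest rise among the metabolic genes after Pfkp, and no TAC library overlapped Sham. Breakdown of branched-chain amino acids had 5 of 16 fallen (31.2%, against 6.41% of all genes; median -0.20). The count was 2 without TAC replicate 4, 3 without Sham replicate 1 or 4 or TAC replicate 1 or 2, and 9 without TAC replicate 3. The tricarboxylic acid cycle had 6 of 19 (31.6%, against 6.41% of all genes) fallen (median -0.18), and 2 without Sham replicate 1 or TAC replicate 1, 2 or 4. Of 19 transcription factors and coactivators that control these routes, 2 (10.5%) fell, not far from the 6.41% of all genes. The count was 3 by DESeq2 and 1 without TAC replicate 1 or 2. The 2 were the retinoid X receptor Rxrg (-0.37, adjusted p = 0.0159) and the thyroid hormone receptor Thrb (-0.54, adjusted p = 0.0196). Ppara at 0.05 (adjusted p = 0.905), Ppargc1a at 0.23 (0.715) and Esrrb at 0.14 (0.432) did not pass the test. In the creatine kinase system 1 of 6 rose (16.7%, against 7.2% of all genes), the creatine transporter Slc6a8 (0.57, adjusted p = 0.0207). The count was 0 without Sham replicate 2 or 3 or TAC replicate 2. The kinases Ckm (-0.23, adjusted p = 0.0841) and Ckmt2 (-0.11, adjusted p = 0.446) did not pass. Slc2a1, Pgam1, Eno3, Ldhb, Rxrg, Thrb and Slc6a8 were chosen after their values were seen.

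**Figure D5:**
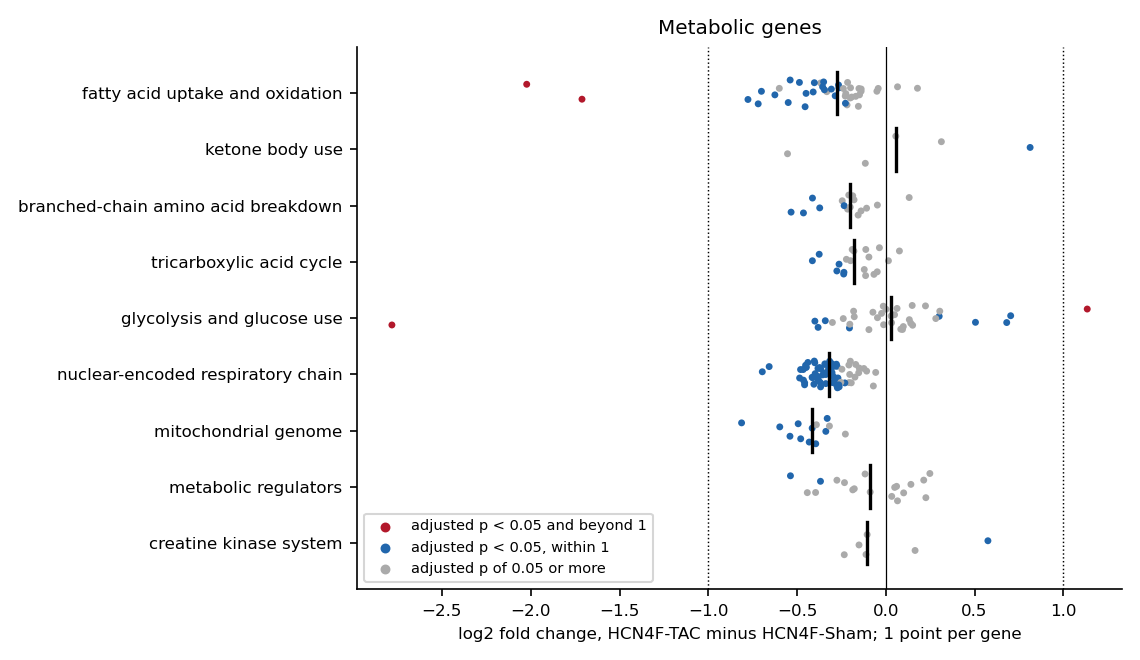
Log2 fold changes (x axis) of 231 metabolic genes by list, 1 point per gene, in red where called, in blue where the adjusted p was under 0.05 within a log2 fold change of 1 and in grey otherwise, with a bar at the median. The 75 respiratory chain genes all lie left of 0, and glycolysis spreads from -2.78 to 1.13 around a median of 0.03.

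Of 140 ion channel and signalling genes, 1 (0.714%) was called higher and 4 (2.86%) lower, against 1.58% and 1.16% of all genes. The median was -0.07, and -0.03 to -0.05 without any 1 library other than TAC replicate 3 or 4. By the adjusted p, 11 (7.86%) rose, near the 7.2% of all genes, and 16 (11.4%) fell, against 6.41% of all genes, a count of 9 without TAC replicate 2. Hcn4 itself, the mutated gene, measured 12.99, 9.27, 6.36 and 7.67 CPM in Sham and 5.93, 3.49, 8.41 and 9.07 CPM after TAC. The groups overlapped and the log2 fold change of -0.43 (SE 0.26) did not pass (adjusted p = 0.304), nor did that of the related channel Hcn2 (-0.29, adjusted p = 0.218). Gene counts do not show the point mutation, so they are no check of the genotype. Potassium channels, which repolarise the cell, had 6 of 32 fallen (18.8%, against 6.41% of all genes) and a median of -0.16. Kcnv2, a silent subunit that modifies Kv2 channels, was the called member, at 4.86, 5.02, 9.65 and 5.89 CPM in Sham and 1.33, 1.12, 2.68 and 1.95 CPM after TAC (-1.84, adjusted p = 7.49e-04). Kcnh2, which carries the rapid delayed rectifier current, fell from 80.1 ± 7.43 to 51.0 ± 8.38 CPM (-0.65, adjusted p = 4.53e-04), Kcnj3 of the acetylcholine-gated channel from 33.1 ± 4.76 to 18.9 ± 4.38 CPM (-0.81, adjusted p = 0.00338) and Kcnj2 of the inward rectifier from 47.4 ± 6.92 to 27.6 ± 9.58 CPM (-0.78, adjusted p = 0.0233). Without TAC replicate 3, whose Kcnj2 level of 41.0 CPM lay among the Sham values, Kcnj2 was called (-1.04). Kcnip2, a subunit of the fast transient outward channel, fell by 0.39 on the log2 scale (adjusted p = 0.00501), and its pore subunit Kcnd2 measured 11.2, 7.44, 20.5 and 12.9 against 9.33, 7.08, 11.8 and 7.73 CPM (-0.54, adjusted p = 0.233). Kcnh2 was chosen after its values were seen.

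The L-type calcium channel Cacna1c (0.01, adjusted p = 0.970) and the connexin Gja1 (0.26, adjusted p = 0.181) did not pass the test. The muscle chloride channel Clcn1 was called lower (-1.39, adjusted p = 0.00940), while the intracellular channel protein Clic5 rose from 248 ± 31.5 to 482 ± 12.5 CPM and stayed just under the threshold (0.96, adjusted p = 2.07e-05), except without Sham replicate 4 (1.04). Among adrenergic and cAMP genes, Gnao1, a G protein alpha subunit, measured 22.7, 24.8, 18.7 and 24.0 CPM against 54.5, 63.4, 41.8 and 54.1 CPM (1.25, SE 0.11, adjusted p = 7.16e-06) with no overlap. The G protein regulator Rgs2 fell by 0.92 and the adrenergic receptor Adra1b by 0.85 on the log2 scale, while Adrb1 did not pass (0.10, adjusted p = 0.841). Both were called in some fits without 1 library, Rgs2 without Sham replicate 1 or 2 or TAC replicate 3 and Adra1b without Sham replicate 4. Rgs2 and Adra1b were chosen after their values were seen.

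Of 207 tested immune genes, 10 (4.83%) were called higher and 5 (2.42%) lower, against 1.58% and 1.16% of all genes, and the median was 0.16 (0.10 without TAC replicate 2). By the adjusted p, 21 (10.1%) rose and 9 (4.35%) fell, against 7.2% and 6.41% of all genes. The count of 21 was 13 without Sham replicate 4 or TAC replicate 2 and 32 without TAC replicate 3. Of 24 antigen presentation genes, 0 passed by edgeR or DESeq2 and 2 were lower at an unadjusted p under 0.05. Of 42 interferon-stimulated genes, 0 passed by edgeR, 2 were higher and 1 lower at an unadjusted p under 0.05, and 1 in each direction had an adjusted p under 0.05 by DESeq2. The 8 macrophage markers summed to 161 to 216 CPM in Sham and 157 to 262 CPM after TAC. Among macrophage genes Adgre1 measured 8.49 ± 0.640 and 9.95 ± 2.03 CPM (0.23, adjusted p = 0.303), C1qa 50.6 ± 9.33 and 56.1 ± 14.4 CPM (0.15, adjusted p = 0.602). The recruiting receptor Ccr2 (0.28, adjusted p = 0.653) did not pass either. Of 21 complement genes, 4 (19.0%) rose, against 7.2% of all genes, a count of 2 without TAC replicate 2, and 2 (9.52%) fell, against 6.41%, a count of 1 without Sham replicate 3 or 4 or TAC replicate 1, 2 or 4. Masp1, a protease of the lectin pathway, rose (0.85, adjusted p = 3.97e-04), and the central component C3 did not pass (-0.39, adjusted p = 0.310). Cfd, a complement protease made by fat cells, was the called member (-2.61, adjusted p = 0.0483), and its call was lost without Sham replicate 3 or 4 or TAC replicate 1, 2 or 4. Masp1 and Cfd were chosen after their values were seen.

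Retnla, the alternatively activated macrophage product, was the 1 called gene of 30 in the macrophage list, at 3.12, 3.61, 2.89 and 2.35 CPM in Sham and 0.912, 0.560, 1.06 and 0.529 CPM after TAC (-1.95, adjusted p = 2.00e-04). Of 28 chemokine and receptor genes, 20 lay above 0 (median 0.54), 5 (17.9%) rose, against 7.2% of all genes, and 2 (7.14%) fell, against 6.41%. The count of 5 was 2 without Sham replicate 1 or 4 and 3 without Sham replicate 2 or TAC replicate 2, and the count of 2 was 1 without Sham replicate 2 or 4 or TAC replicate 1, 2 or 4. The lymphocyte and dendritic cell receptor Ccr7 was called higher (1.68, adjusted p = 0.00658). Ccl12, a monocyte attractant, was called higher at an adjusted p just under 0.05 (0.04996) by edgeR (1.502), a call lost without any 1 library except TAC replicate 3 and without mitochondrial genes. Ccr7 and Ccl12 were chosen after their values were seen. Ccl11, the eosinophil attractant eotaxin, went the other way, from 1.32, 1.37, 2.93 and 2.57 CPM to 0.373, 0.0988, 0.565 and 0.0814 CPM (-2.87, adjusted p = 6.95e-04). Retnla and Ccl11 separated the groups in every library, which the choice of the largest falls without overlap required. Cxcl12 fell by less (-0.60, adjusted p = 0.0404). Cytokine genes had 6 of 39 called higher (15.4%, against 1.58% of all genes), 3 without TAC replicate 1. Ptgs2, the inducible prostaglandin synthase, measured 0.376, 0.548, 0.759 and 0.785 CPM in Sham and 4.11, 2.90, 3.18 and 3.66 CPM after TAC (2.45, SE 0.25, adjusted p = 2.80e-05). Tnfrsf12a, the receptor of TWEAK on muscle and fibroblasts, measured 69.3, 47.1, 37.3 and 47.9 against 211, 150.2, 151 and 133 CPM (1.68, adjusted p = 1.99e-04). Both rose in all 4 TAC libraries, replicate 3 included. Socs3, which damps cytokine signals, was called at 1.27 but not without TAC replicate 1 (0.90). The endotoxin receptor Tlr4 was called at 1.08 but not without Sham replicate 2 (0.98) or TAC replicate 1 (0.93). Of lymphocyte genes 14 of 34 could be tested, with 2 (14.3%) called higher and 1 (7.14%) lower, against 1.58% and 1.16% of all genes. The B cell receptor chain Cd79a rose from 0.550 ± 0.225 to 1.52 ± 0.436 CPM (2.83-fold, adjusted p = 0.00699), and the immunoglobulin chain Ighd was called higher (1.26, adjusted p = 0.0355) but not without Sham replicate 1 or 4 or TAC replicate 1, 2 or 4. Cd247, a signalling chain of the T cell receptor, was called lower (-1.14, adjusted p = 0.0275) but not without Sham replicate 2 or TAC replicate 1, 2 or 4 or in the fit of HCN4F libraries alone. The T cell receptor gene Trac did not pass (-0.46, adjusted p = 0.490). Ighd, Cd247 and Trac were chosen after their values were seen. The 8 T and B cell markers summed to 1.63 to 2.74 CPM in Sham and to 2.65 to 4.72 CPM after TAC, and the part of these cells in the rise of Cd79a was not tested.

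Immediate early genes, which answer acute stimuli within minutes, had 10 of 29 risen (34.5%, against 7.2% of all genes), with 5 called higher (17.2%, against 1.58%). The risen were 5 without Sham replicate 2 and 6 without TAC replicate 2, and the called were 2 without Sham replicate 2 and 3 without TAC replicate 2 or 3. Egr2 measured 5.42, 5.34, 2.64 and 4.77 CPM in Sham and 10.7, 28.1, 12.2 and 34.0 CPM after TAC (2.23, adjusted p = 0.00834), and Egr3 rose by 1.73 (adjusted p = 0.00643). Junb, chosen after its values were seen, rose from 55.4 ± 12.9 to 106 ± 27.2 CPM (0.93, adjusted p = 0.00828), and was called without Sham replicate 3 or TAC replicate 1 or 4. Egr1 measured 109, 206, 202 and 112 CPM in Sham and 149.9, 235, 257 and 227 CPM after TAC, overlapped and did not pass (0.47, adjusted p = 0.295). Its WT-Sham mean was 12.5 ± 4.05 CPM (n = 4), below every HCN4F-Sham library.

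Among heat shock and unfolded protein genes, 8 of 38 (21.1%) rose, against 7.2% of all genes. The small heat shock proteins of muscle were among them, Hspb7 from 2179 ± 84.3 to 3552 ± 424 CPM (0.70, adjusted p = 6.95e-05) and Hspb6 from 611 ± 64.0 to 1059 ± 120.0 CPM (0.79, adjusted p = 6.95e-05). Hsp90aa1 (0.83, adjusted p = 0.0339) and the stress factor Atf4 (0.47, adjusted p = 0.00161) rose as well. Nox4, an NADPH oxidase that forms hydrogen peroxide, was the called redox gene (0.846 ± 0.233 to 2.36 ± 0.991 CPM, 1.49, adjusted p = 0.00485), while 7 of 38 redox genes (18.4%, against 6.41% of all genes) fell, among them the glutathione transferase Gsta3 (-0.94, adjusted p = 0.00817), which was called without Sham replicate 1 or 2 or TAC replicate 2. Of 46 ribosomal protein genes, 45 lay below 0 (median -0.23) and 10 (21.7%, against 6.41% of all genes) fell, with Rps14 the lowest (-0.36, adjusted p = 0.0171). The ribosomal count rested on single libraries, since 36 fell without Sham replicate 3 and between 3 and 6 without Sham replicate 1 or 2 or any 1 TAC library. The angiogenic factor Vegfa rose from 171 ± 34.9 to 275 ± 53.6 CPM (0.68, adjusted p = 0.00758) while the endothelial marker Pecam1 did not pass (-0.11, adjusted p = 0.567). The proliferation marker Mki67 measured 7.15 ± 2.23 and 8.76 ± 3.74 CPM (0.28, adjusted p = 0.592). Hspb6, Hsp90aa1, Atf4, Gsta3, Rps14 and Vegfa were chosen after their values were seen.

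Of the markers of other cell types, 0 of 10 for smooth muscle and 0 of 10 for endothelial cells passed by edgeR or DESeq2 or at an unadjusted p under 0.05. Of 8 for macrophages 0 passed by edgeR, with 1 higher at an unadjusted p under 0.05 and 1 by DESeq2. Markers of Schwann cells and neurons, the nerves of the ventricle, summed to 7.85 to 14.2 CPM in Sham and 5.19 to 7.96 CPM after TAC, and 4 of 6 tested (66.7%, against 1.16% of all genes) were called lower. The count was 3 without TAC replicate 3, 2 without Sham replicate 1 or 4 or TAC replicate 1, 2 or 4, and 1 without Sham replicate 2. Sox10, a transcription factor of Schwann cells, fell (-1.05, adjusted p = 0.0132) and lost its call without Sham replicate 2 or 4 or TAC replicate 2 (-0.78). Markers of valve and cartilage summed to 7.83 to 13.9 CPM in Sham and 18.6 to 78.2 CPM after TAC. They share Comp, Fmod, Acan and Sox9 with the matrix lists, and Sox9, a transcription factor of cartilage and of activated fibroblasts, rose from 2.79 ± 0.510 to 7.50 ± 1.31 CPM (1.43, adjusted p = 3.01e-05). Against these 4 rises, 2 of the 7 tested fell, chondromodulin, Cnmd, from 0.678, 0.776, 2.06 and 1.63 to 0.124, 0.329, 0.848 and 0.610 CPM (-1.43, adjusted p = 0.0360) and matrilin 4, Matn4 (-0.99, adjusted p = 0.0441), both chosen after their values were seen. No more than 1 of these falls passed without any 1 library, and 0 without Sham replicate 4 or TAC replicate 1, 2 or 4, and the call of Cnmd was also lost without Sham replicate 3, where Matn4 was called, and in the fit of HCN4F libraries alone. Markers of atrial cardiomyocytes summed to 456 to 586 CPM in Sham and 801 to 1261 CPM after TAC, mostly from Pam, which rose from 453 ± 59.9 to 881 ± 173 CPM (0.96, adjusted p = 3.20e-04) and was called without Sham replicate 4 (1.01), TAC replicate 3 (1.04) or TAC replicate 4. They went both ways. Of 8 tested, 4 rose (Pam, Dkk3, Adamts8 and the light chain Myl1, 0.84) and 2 fell, Stard10 from 28.0 ± 4.22 to 12.8 ± 3.33 CPM (-1.12, adjusted p = 4.91e-04) and Kcnj3. The atrial light chain Myl7 measured 0.0376, 0.320, 0.181 and 0.694 CPM in Sham and 0, 9.91, 0 and 0.163 CPM after TAC, with only TAC replicate 2 above 1 CPM. TAC replicate 2 also stood highest for the light chain Myl4 (17.4 CPM against 1.48 to 4.07 CPM in the other TAC libraries; 1.605, adjusted p = 0.147, and 0.25 without it), for sarcolipin, Sln (3.79 against 0 to 0.285 CPM), for Mybphl (1.78 against 0 to 0.285 CPM) and for Dkk3 (24.2 against 4.84 to 13.4 CPM). Myl7, Myl4, Myl1, Sln, Mybphl and Stard10 were chosen after their values were seen. The part of atrial tissue in that library, the highest for Nppa, was not tested. Without TAC replicate 2 the log2 fold change of Nppa was 2.73 and it was still called.

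The WT comparison shares no library with that of HCN4F. The median log2 fold change after TAC was 0.93 in WT and 1.90 in HCN4F for the load-induced list, 0.11 and 0.46 for the matrix, -0.17 and -0.25 for metabolism, and -0.32 in both for the respiratory chain. The sign differed for the immune lists (-0.21 in WT and 0.16 in HCN4F) and for the ion channel and signalling lists (0.04 and -0.07). Of the 420 genes called in HCN4F, 370 had the same sign in WT, and 42 of the higher and 10 of the lower genes were also called there, with only 2 WT-TAC libraries. By the test of the difference itself, the interaction of genotype and surgery in edgeR, 0 genes passed at an adjusted p under 0.05 and 1418 had an unadjusted p under 0.05, whereas DESeq2 gave 40 genes. Without HCN4F-TAC replicate 3, edgeR gave 78. Acta1 rose by 3.13 in WT (interaction 1.11, adjusted p = 0.511), Nppa by 0.93 (interaction 2.28, adjusted p = 0.460) and Egr1 by 3.63 (interaction -3.17, adjusted p = 0.168), and none of these interactions passed.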

How the data were processed

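Polyadenylated RNA of left ventricles was sequenced by the authors, who deposited whole-number counts per gene, not normalised. The submitters' processing notes name GRCm38; the aligner, the counter and the use of strand were not given in the sources used here. Of 16 samples described, 14 were analysed, and 2 columns of per-sample counts that match no analysed sample were not used. Groups came from the labels.

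Genes with too few counts were removed by filterByExpr, and 15292 of 49315 were tested with edgeR 4.0.16 (R 4.3.3; TMM scaling, robust quasi-likelihood F-test) on all 14 libraries, and p-values were adjusted by Benjamini-Hochberg across these 15292. A call needed an adjusted p under 0.05 and a log2 fold change beyond 1. The contrasts were HCN4F-TAC against HCN4F-Sham, the same in WT, and their difference. CPM are TMM-scaled, and list scores use a prior count of 2. No batch of animals or libraries is given in the sources used here, and p-values measure the spread between these samples. With n = 4 a group, depths of 22309914 to 33368926 counts leave genes of a few counts imprecise. The floor for an undetected gene was 3 counts per library. On simulated data the script was tested for recovery of known changes. Replicate numbers did not pair the samples.

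The text names the largest rises and falls without overlap at a mean of at least 1 CPM, the largest called genes and the most abundant genes of each list, and textbook anchors; all others were chosen after their values were seen, and some genes that meet the rule are not reported here. The members and lists were chosen with earlier results of these data known. DESeq2 1.42.0, size factors, other filters, HCN4F libraries alone, a replicate block, glmTreat and leaving out each library were alternatives. A fit without mitochondrial genes and the counts past the adjusted p alone within lists were added after seeing the data. Positions are from GENCODE vM21 (GRCm38) and promoters from RefSeq (GRCm38.p6); Comp, Tbx15, Gm13054, Kcnv2, Penk, Gm10635, Ccl11, Aqp4 and Ctgf had no promoter entry. Among 180 named genes, 29 overlap another gene on the same strand and 72 on the opposite strand, and reads of such pairs cannot be told apart.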

Additional observations from a re-analysis of the deposited data

Results flagged for a closer look

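In 27 of 482 groups of 4 libraries (5.6%), the highest or lowest library stood apart from the other 3 by a gap that exceeds Dixon's 95% critical value. Chance alone flags about 1 in 20 such groups. Some of the genes looked at, Myl7 and Myl4 among them, were chosen after their values were seen, so the share is no test against chance. Of the 27 groups, 7 concerned HCN4F-Sham replicate 1 and 5 each HCN4F-TAC replicates 2 and 3.

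Among contractile and channel genes, HCN4F-Sham replicate 1 held Ankrd23 at 141 CPM and Tnnt2 at 9927 CPM, above the rest of its group. HCN4F-Sham replicate 2 held Ryr2 at 1522 CPM, below it, and HCN4F-Sham replicate 3 held Cacng6 at 6.65 CPM, above it. After TAC, Kcnip2 stood out high in replicate 3 (151 CPM), Kcnj3 low in replicate 2 (12.3 CPM), Clic5 low in replicate 4 (463 CPM) and Myl7 (9.91 CPM) and Myl4 (17.4 CPM) high in replicate 2.

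Among metabolic genes, Pfkfb1 was high in HCN4F-Sham replicate 3 (20.03 CPM), Cpt1b low in HCN4F-Sham replicate 2 (48.4 CPM) and Ldhb low in HCN4F-Sham replicate 4 (1245 CPM). Hadha was high in HCN4F-TAC replicate 3 (1377 CPM) and Pfkp high in HCN4F-TAC replicate 2 (145 CPM). In the matrix and immune lists, HCN4F-Sham replicate 1 was low for Postn (18.4 CPM) and Fn1 (36.0 CPM), HCN4F-TAC replicate 3 low for Lox (7.56 CPM) and Vcan (22.2 CPM), and HCN4F-TAC replicate 2 low for Cxcl12 (104 CPM).

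For whole lists, the median log2 difference from the HCN4F-Sham mean stood apart at -0.36 for the load-induced genes in HCN4F-Sham replicate 3 and -0.12 for potassium channels in HCN4F-Sham replicate 2. In HCN4F-Sham replicate 1 it was -0.29 for interferon-stimulated genes, -0.44 for smooth muscle markers and -1.11 for erythroid markers. After TAC it was 0.14 for proteoglycans in replicate 3, and -0.46 for the circadian clock and 1.37 for mesothelium in replicate 4.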

How the results depend on the processing

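The 420 called genes (242 higher, 178 lower) became 260 (161, 99) at a mean CPM of at least 1, 2081 (1101, 980) by the adjusted p alone and 31 (28, 3) with glmTreat at a log2 threshold of 1, where 90.3% were higher against 57.6%. Leaving out 1 HCN4F library gave 273 to 550 genes (174 to 320 higher, 99 to 230 lower), the lowest without HCN4F-TAC replicate 2 and the highest without HCN4F-TAC replicate 3. The replicate block gave 395 (233, 162); the numbers are shared names only, since deviations of same-numbered samples correlated at -0.067 to 0.150. DESeq2 gave 432, and 335 on HCN4F libraries alone. The interaction count of 0 became 40 with DESeq2 and 0 to 78 without 1 library. Theme medians kept their direction except that of the stress and growth lists, which was about 0 (-6.35e-05) and ranged from -0.0386 to 0.0139 over the alternatives. List medians changed sign for creatine kinase (-0.157 to 0.031 without 1 library, highest without HCN4F-Sham replicate 2), thick filament (-0.10 on HCN4F libraries alone, -0.094 at a mean CPM of at least 1), sodium channels (-0.193 to 0.084, highest without HCN4F-TAC replicate 1), calcium channels (-0.098 to 0.012, above 0 without HCN4F-Sham replicate 1 or HCN4F-TAC replicate 2), neutrophils, mast cells and dendritic cells (-0.26 on HCN4F libraries alone, -0.25 at a mean CPM of at least 1) and mesothelium (-4.89 to 0.45, highest without HCN4F-Sham replicate 2); the causes were not tested. Of 94 called genes named, 74 kept their call, where tested, under each of 14 alternatives followed gene by gene; of the 94, glmTreat called 17, no filter on low counts 89, non-robust estimation 94 and DESeq2 on HCN4F libraries alone 89. Of 55 genes named that rose or fell without a call, 38 kept an adjusted p under 0.05 without each HCN4F library. Timp1 and Cfd lost their calls under the replicate block (adjusted p = 0.0586 and 0.0672 by edgeR). Depth limits genes of a few counts, such as Igfbp2 and Il11 in Sham.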
